A study of Mus musculus with 2 samples.

Results

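The Trem2 receptor and 5 proteins that carry or restrain its signal were followed by their RNA in single cells sorted from the cerebral cortex of mice with and without moesin. The 6 genes, Trem2, Tyrobp, Hcst, Syk, Plcg2 and Inpp5d, were taken by symbol from the 55357 genes that both libraries list, and each symbol stood for 1 gene. The comparison was between wild-type mice and mice lacking Msn, the X-linked gene of moesin, a protein that ties the plasma membrane to cortical actin. All mice were 8 weeks old, and each library pooled the cortices of 5 to 6 mice. The tissue was digested with papain and cleared on Percoll, and CD45+CD11b+ cells were sorted for 10x Genomics 3′ sequencing. The series design gives C57BL/6 for the knockout. The sources used here name neither the strain of the wild-type animals, nor their sex, nor which part of Msn was deleted. Each genotype had 1 library, so genotype, pool, sort and library cannot be told apart. No test was possible, and every interval below is exact, at 95%, and covers counting error only. Limits for a count of 0 are instead taken at 3 counts.

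Trem2 is a surface receptor of microglia and some other macrophages that binds lipids, lipoproteins such as ApoE, and cell debris. It has almost no signalling tail of its own and pairs with the adaptors DAP12, encoded by Tyrobp, and DAP10, encoded by Hcst. Src family kinases phosphorylate the DAP12 motif, which recruits the kinase Syk, and Syk activates phospholipase C gamma 2, encoded by Plcg2, while DAP10 recruits PI3 kinase. Inpp5d encodes SHIP1, a phosphatase that removes the PI3 kinase product and so dampens the chain. In the brain the chain is known for supporting microglial survival, phagocytosis and the response to damage, and variants of several of its genes are linked to neurodegenerative disease.

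The 6 genes differ widely in size, and the pair of adaptor genes are neighbours (GRCm39, GENCODE annotation). Trem2 (ENSMUSG00000023992) spans 7.75 kb of chromosome 17, from 48653429 to 48661175. Tyrobp (ENSMUSG00000030579) spans 3.84 kb of chromosome 7, from 30113170 to 30117010 on the plus strand. Hcst (ENSMUSG00000064109) follows at 30117135 to 30119297 on the minus strand, 2.16 kb long, so that the 3′ ends of both face each other over a gap of 124 bases and the genes do not overlap. Syk (ENSMUSG00000021457, chromosome 13, 52736696 to 52802828) spans 66.1 kb, Plcg2 (ENSMUSG00000034330, chromosome 8, 118224988 to 118361881) 137 kb and Inpp5d (ENSMUSG00000026288, chromosome 1, 87547989 to 87648230) 100 kb. The receptor and its adaptors are thus the short genes, and the kinase, the lipase and the phosphatase the long ones.

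Promoter sequence was at hand for 5 of the 6 genes, Tyrobp being absent from the RefSeq table. In the 250 bases upstream of each RefSeq start (GRCm38.p6, an older build than that of the gene positions above), the letters AGGAAGT, a form of the site bound by ETS factors such as the myeloid regulator PU.1, were searched on both strands. They occurred in 7.69% of 32851 promoters. Hcst (chr7:30419855-30420104, minus strand) held them at 2 places, starting at positions −46 and −17 counted back from the start, and Inpp5d (chr1:87620062-87620311, plus strand) at 1 place, starting at −19. Trem2 (chr17:48346151-48346400, plus strand), Plcg2 and the pair of Syk promoters did not hold these letters in this window. The sequences of the adaptor and the phosphatase, which differed in opposite directions between the libraries, and of the receptor are shown 5′ to 3′ with the motif in capitals.
Hcst: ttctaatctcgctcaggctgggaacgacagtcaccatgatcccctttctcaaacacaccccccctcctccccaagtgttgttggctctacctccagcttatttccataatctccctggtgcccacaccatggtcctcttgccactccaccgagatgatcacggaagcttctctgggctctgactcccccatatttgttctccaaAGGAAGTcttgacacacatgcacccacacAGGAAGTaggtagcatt
Inpp5d: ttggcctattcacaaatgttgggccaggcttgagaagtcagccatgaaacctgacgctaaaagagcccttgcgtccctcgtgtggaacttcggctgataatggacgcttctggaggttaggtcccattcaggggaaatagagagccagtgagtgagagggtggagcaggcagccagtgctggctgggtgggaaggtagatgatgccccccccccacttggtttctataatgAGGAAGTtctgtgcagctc
Trem2: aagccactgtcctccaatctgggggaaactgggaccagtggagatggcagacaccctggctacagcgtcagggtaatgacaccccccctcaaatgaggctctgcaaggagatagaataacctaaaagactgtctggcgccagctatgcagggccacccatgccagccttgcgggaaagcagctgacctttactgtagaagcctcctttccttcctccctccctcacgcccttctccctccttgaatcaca
A match is a description of the letters and was not linked to any level measured here.

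The wild-type library held 5842 barcodes with 68576464 UMIs and the knockout library 9038 barcodes with 67575835 UMIs. Of these, 5577 and 7573 cells had at least 500 genes and at most 10% mitochondrial UMIs, and 12 kept barcodes were shared between the libraries. Classes were gated by UMIs of P2ry12 and Tmem119 for microglia, Ace or Ly6c2 for monocytes, Mrc1 and Pf4 for border macrophages, and Ncr1 and Nkg7 for NK cells, with Cd79a and Ms4a1 for B cells as a background. Cells that met the gates of more than 1 class were left out. The gates gave 5030 wild-type and 4656 knockout microglia, 48 and 530 monocytes, 24 and 135 border macrophages, 0 and 63 NK cells, and 0 and 14 B cells. The 0 wild-type NK cells allow, at 3 counts, a share of up to 0.0538% of kept cells.

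The gated classes carried the markers of their names, with exceptions that bear on the values below. All 8 further microglia markers had UMIs in gated microglia, with a sum of 18376 CPM (UMIs of a gene scaled to 1000000 UMIs of the class) in wild-type and 20453 CPM in knockout cells. Border macrophages of the knockout library held 4413 CPM of microglia markers beside 3944 CPM of border macrophage markers, against 2665 and 4176 CPM in the 24 wild-type cells. Knockout monocytes gated by Ly6c2 held 6657 CPM of neutrophil markers beside 10287 CPM of monocyte markers, and 584 CPM of NK markers, against 152 CPM of neutrophil and 113 CPM of NK markers in wild-type cells of that gate. Knockout monocytes gated by Ace held 63.4 CPM of neutrophil markers but 1328 CPM of the choroid plexus markers Ttr and Enpp2, of which the 20 wild-type cells of that gate held no UMI.

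Msn itself checks the labels. It stood at 322 CPM (317 to 326) in wild-type and 20.8 CPM (19.3 to 22.3) in knockout microglia, a 15.5-fold lower level. In monocytes it was 762 CPM against 47.5 CPM, and in border macrophages 271 CPM against 8.08 CPM from 4 UMIs. Knockout NK cells held 27.2 CPM and knockout B cells no UMI, which at 3 counts allows up to 36.4 CPM. The assay reads 3′ ends, so it checks the labels only as far as the deletion removed or silenced that end.

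Trem2, the receptor, was largely restricted to microglia and border macrophages. In microglia it stood at 1911 CPM (1900 to 1922) in wild-type and 2549 CPM (2533 to 2565) in knockout cells. In border macrophages it stood at 769 CPM (617 to 947) and 901 CPM (819 to 988), intervals that overlap. Both microglial libraries lay above both border macrophage libraries, and border macrophages lay above every other class. Wild-type monocytes held 134 CPM (99.2 to 176) and knockout monocytes 111 CPM (99.4 to 123). NK cells held 121 CPM (86.3 to 164) and B cells 170 CPM (92.8 to 285), and the intervals of these 4 values overlap.

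NK and B cells are not known for Trem2, so their level serves as its background. Trem2 reached 4.74% of the microglial level in NK cells, where the summed microglia markers reached 3.42% of theirs, and 6.66% in B cells, where the markers reached 6.46%. In monocytes Trem2 was at 6.996% of the microglial level in wild-type and 4.34% in knockout cells, beside 4.53% and 3.25% for the markers. The monocyte intervals overlap those of both lymphocyte classes, which come from the knockout library alone. Scaled by the marker share of the same library, microglial Trem2 would give 86.5 CPM in wild-type and 82.8 CPM in knockout monocytes, just below both monocyte intervals. In the 20 wild-type Ace-gated cells Trem2 was at 9.86% of the microglial level, beside 5.37% for the markers. Whether monocytes hold Trem2 RNA of their own was thus not settled. In border macrophages Trem2 was at 40.2% and 35.3% of the microglial level, beside 14.5% and 21.6% for the markers.

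**Figure D1:**
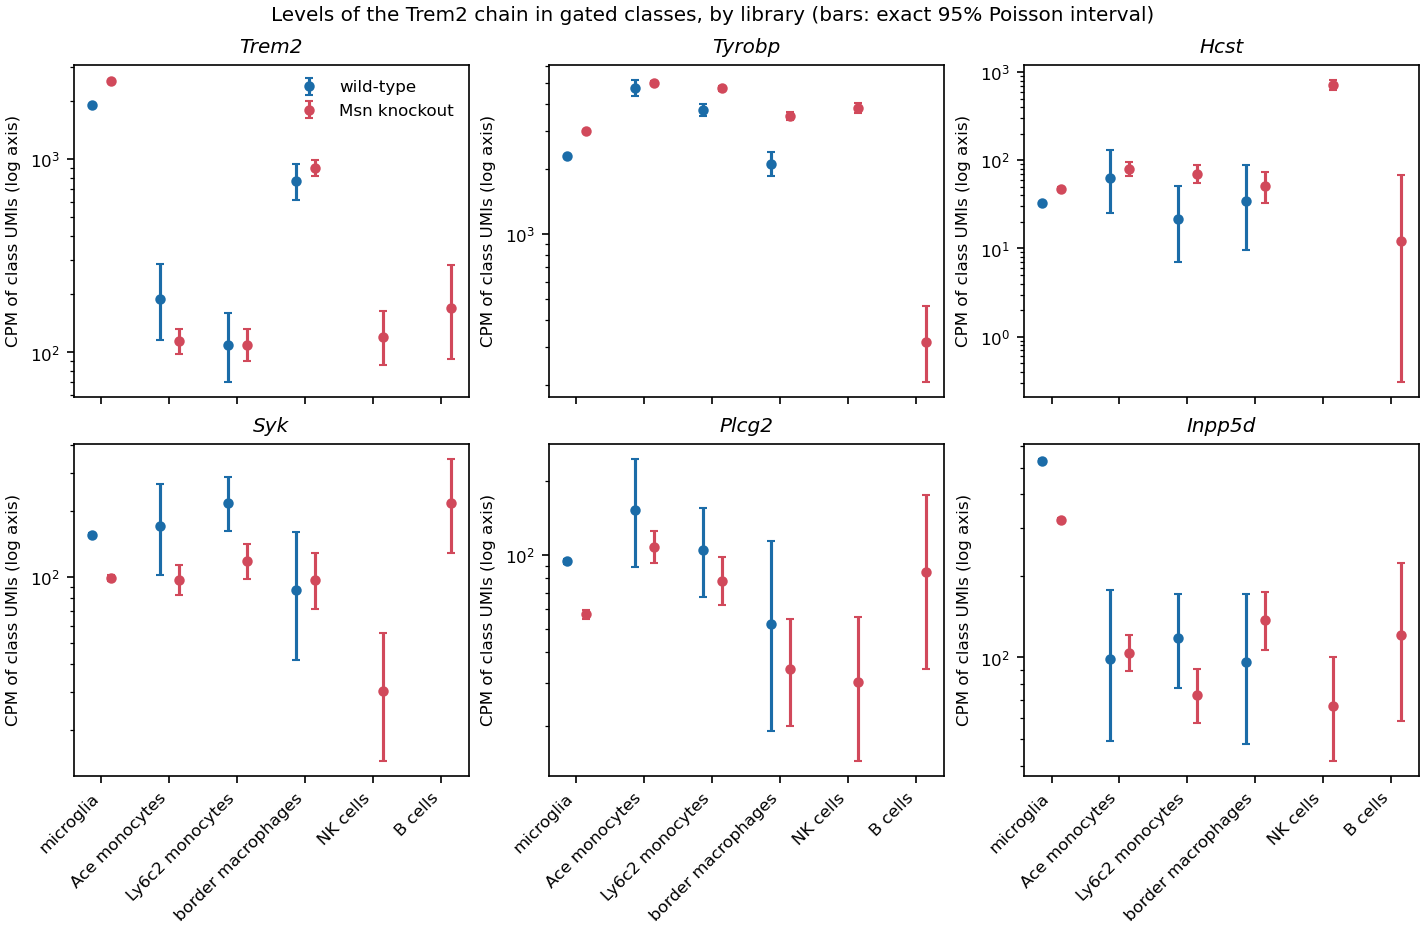
CPM (log axis) of each of the 6 genes in 6 gated classes, by library, with exact 95% Poisson intervals as bars. Trem2 and Inpp5d were highest in microglia, Tyrobp was high in every class but B cells, and Hcst was highest in NK cells, at 709 CPM. NK and B cells were gated in the knockout library alone.

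Tyrobp, the DAP12 adaptor shared by many receptors, was broad where Trem2 was restricted. It stood at 2297 CPM (2285 to 2310) in wild-type and 3019 CPM (3001 to 3037) in knockout microglia. Monocytes were higher than microglia of the same library, at 4134 CPM (3931 to 4346) and 4963 CPM (4887 to 5041), which is 1.80-fold and 1.64-fold the microglial level. NK cells held 3855 CPM (3646 to 4072), 1.28-fold the level of knockout microglia. Border macrophages held 2106 CPM (1848 to 2389) in wild-type and 3524 CPM (3361 to 3693) in knockout cells. B cells, the background class for Tyrobp, held 315 CPM (206 to 462), or 10.4% of the microglial level.

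UMIs of adaptor and receptor were close to equal in microglia and further apart in border macrophages, monocytes and NK cells. Per Trem2 UMI there were 1.20 Tyrobp UMIs (1.19 to 1.21) in wild-type and 1.18 (1.17 to 1.19) in knockout microglia. Border macrophages had 2.74 (2.14 to 3.54) and 3.91 (3.52 to 4.35) Tyrobp UMIs per Trem2 UMI. Monocytes had 30.9 (23.3 to 41.8) and 44.9 (40.4 to 49.98), and NK cells 31.9 (23.3 to 44.9). The 40 Trem2 UMIs of NK cells are the background named above. Whether monocytes, with 50 Trem2 UMIs in wild-type cells, hold Trem2 RNA of their own was not settled. The ratios of these classes thus do not measure adaptor per receptor in the cells themselves. Each molecule is tagged at its 3′ end, so these ratios are of captured 3′ ends and need no length scaling, though capture may differ between genes.

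Receptors that use these adaptors also differed between classes. Klrk1, the NKG2D receptor that signals through DAP10 and in mice also through DAP12, stood at 703 CPM in NK cells and under 1 CPM in microglia (0.282 in the wild-type, 0.782 in the knockout library). Treml4, another DAP12-coupled receptor, stood at 736 and 466 CPM in Ace-gated monocytes of the wild-type and knockout libraries, and Trem1 at 89.8 and 225 CPM. Siglech, a DAP12-coupled lectin of microglia, stood at 1160 and 966 CPM in microglia, against 36.2 to 53.9 CPM in Ace-gated monocytes.

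Hcst, the DAP10 adaptor, was the scarcest of the 6 genes in microglia of both libraries and was far higher in NK cells. It stood at 32.4 CPM (30.9 to 33.8) in wild-type and 46.9 CPM (44.7 to 49.1) in knockout microglia. NK cells held 709 CPM (622 to 806), 15.1-fold the level of knockout microglia. Per 100 Tyrobp UMIs there were 1.41 Hcst UMIs in wild-type microglia, 1.55 in knockout microglia and 18.4 (15.9 to 21.2) in NK cells. Monocytes held 34.8 CPM (18.5 to 59.4, 13 UMIs) in wild-type and 72.1 CPM (63.1 to 82.0) in knockout cells. Border macrophages held 34.9 CPM from 4 UMIs and 50.5 CPM (32.7 to 74.5), and B cells 12.1 CPM from 1 UMI.

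Syk, the kinase that binds phosphorylated DAP12, was found in every class and was lowest in NK cells, which can use the related kinase ZAP-70. Microglia held 156 CPM (153 to 159) in wild-type and 99.4 CPM (96.2 to 103) in knockout cells. Monocytes held 195 CPM (153 to 245) and 108 CPM (96.8 to 120), and border macrophages 87.4 CPM (41.9 to 161) and 96.9 CPM (71.5 to 129). B cells, in which Syk serves the antigen receptor, held 218 CPM (129 to 345). NK cells held 30.2 CPM (14.5 to 55.5), 3.29-fold below knockout microglia.

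Plcg2, the phospholipase downstream of Syk, was the scarcest in microglia after Hcst. Microglia held 93.8 CPM (91.4 to 96.3) and 57.3 CPM (54.9 to 59.8), and monocytes 123 CPM (90.1 to 164) and 100.7 CPM (up to 112). Border macrophages held 52.4 CPM from 6 UMIs in wild-type and 34.3 CPM (up to 55.0) in knockout cells. NK cells held 30.2 CPM (14.5 to 55.5) and B cells 84.9 CPM (34.1 to 175). In the wild-type library the intervals of monocytes and microglia overlapped. In the knockout library they did not, and monocytes held 1.76-fold the microglial level.

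Inpp5d, the SHIP1 phosphatase, followed Trem2 and Tyrobp in abundance in microglia, and like Trem2 was highest there. It stood at 531 CPM (525 to 537) in wild-type and 321 CPM (315 to 327) in knockout microglia. Monocytes held 110 CPM (78.7 to 149) and 91.0 CPM (80.9 to 102), which is 4.84-fold and 3.52-fold below microglia of the same library. Border macrophages held 96.1 CPM (48.0 to 172) and 137 CPM (107 to 174), NK cells 66.4 CPM (41.6 to 100.5) and B cells 121 CPM (58.1 to 223). The intervals of border macrophages and B cells overlap, and all lie below both microglial values. In NK cells Inpp5d was at 20.7% of the microglial level, where the microglia markers were at 3.42%, so it stood above that background. In border macrophages Inpp5d was at 18.1% in wild-type and 42.8% in knockout cells, beside 14.5% and 21.6% for the markers. Scaled by the marker share, microglial Inpp5d would give 77.0 and 69.2 CPM there, inside the wild-type interval and below the knockout one.

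Between the libraries, the receptor and both adaptors, the short genes of the chain, were higher in knockout microglia, and the kinase, the lipase and the phosphatase, the long genes, were lower. Role and gene length go together among these 6 genes and cannot be told apart. On the log2 CPM scale the knockout over wild-type ratio was 0.42 for Trem2 (0.40 to 0.43), 0.39 for Tyrobp (0.38 to 0.41) and 0.53 for Hcst (0.44 to 0.63). It was −0.65 for Syk (−0.71 to −0.60), −0.71 for Plcg2 (−0.78 to −0.64) and −0.73 for Inpp5d (−0.76 to −0.70). The median gene was itself at −0.30 on this scale, over 8721 measured genes, those that reached 10 CPM in either library. Relative to that median the ratios were 0.71 for Trem2, 0.69 for Tyrobp and 0.83 for Hcst, and −0.36 for Syk, −0.42 for Plcg2 and −0.43 for Inpp5d. The signs of all 6 were the same on both scales.

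Counts by size depended on the scale. Relative to the median, 3 of the 6 genes were at least 1.5-fold higher in knockout microglia and 0 at least 1.5-fold lower, where 15.3% of all measured genes were higher and 12.6% lower. The higher count was 2 relative to genes at 50 CPM or more and in cells of 4000 to 10000 UMIs, where Tyrobp, at 0.57 and 0.56, stayed under 1.5-fold. The shares of all measured genes at those settings are not given here. Without centring, 0 of the 6 were higher and 3 lower, where 4.82% of all measured genes were higher and 30.5% lower. Relative to the median, 90.6% of measured genes lay below Trem2, 89.7% below Tyrobp and 94.3% below Hcst. For Syk, Plcg2 and Inpp5d the shares below were 26.3%, 22.4% and 21.2%.

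Ratios between members do not depend on the scale. Inpp5d stood at 27.8 UMIs per 100 Trem2 UMIs (27.4 to 28.1) in wild-type and 12.6 (12.3 to 12.8) in knockout microglia. Plcg2 stood at 4.91 (4.78 to 5.04) against 2.25 (2.15 to 2.35) per 100 Trem2 UMIs, and Syk at 6.79 (6.65 to 6.94) against 3.29 (3.19 to 3.40) per 100 Tyrobp UMIs. Tyrobp per Trem2, given above, differed far less. These ratios set a long gene against a short one, and over all measured genes the long ones were lower. The log2 change was −1.14 for Inpp5d per Trem2, −1.13 for Plcg2 per Trem2 and −1.04 for Syk per Tyrobp. The medians of all genes in the same classes of gene span, described below, differ by −0.78, −0.78 and −0.62.

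**Figure D2:**
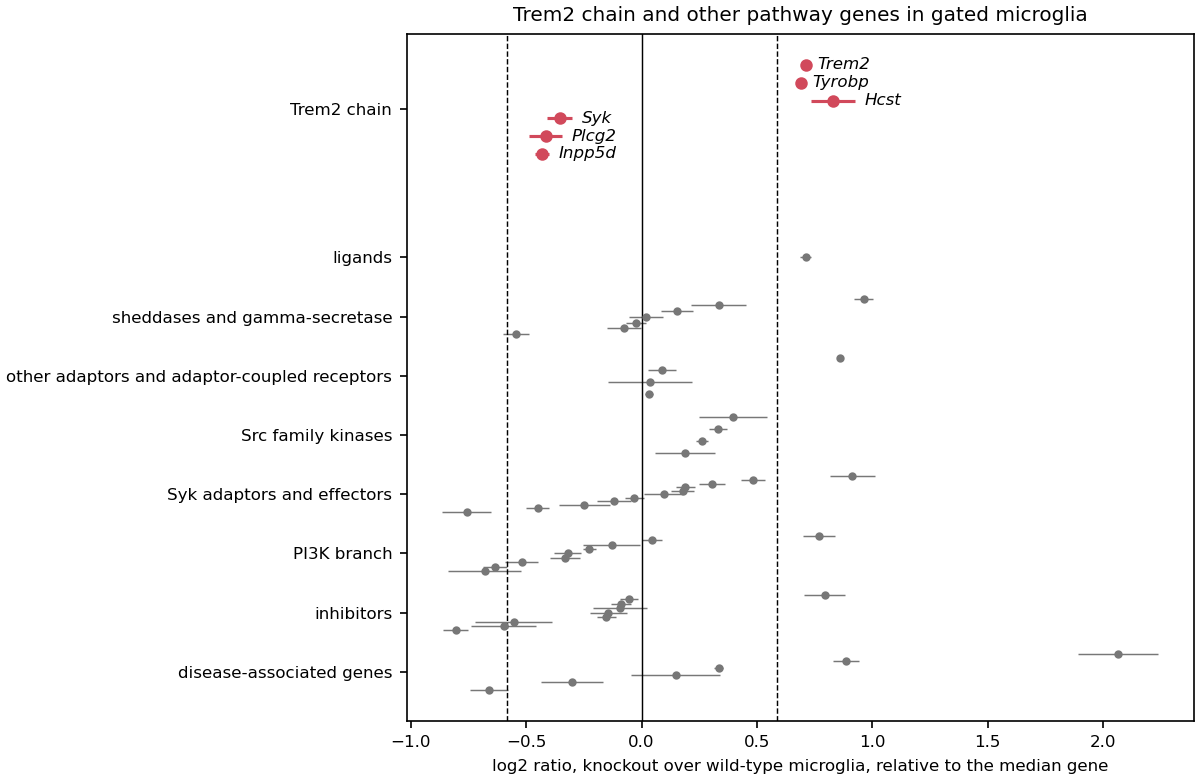
Log2 ratio of knockout over wild-type microglia, relative to the median gene, for the 6 genes (red) and 51 other measured pathway genes by role (grey), with exact 95% intervals. Dashed lines mark 1.5-fold. Trem2, Tyrobp and Hcst lie right of the upper line, and Syk, Plcg2 and Inpp5d lie between 0 and the lower line.

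The share of microglia with a UMI of each gene was compared at equal depth. With every microglial cell thinned to 2000 UMIs, 136 wild-type and 346 knockout cells were too shallow and left out. A Trem2 UMI was then found in 97.1% of wild-type and 98.7% of knockout microglia, and a Tyrobp UMI in 98.6% and 99.3%. Hcst was found in 6.42% (5.75 to 7.14) and 8.24% (7.43 to 9.10) of cells. Unthinned, at median depths of 7265.5 and 5620 UMIs, the Trem2 shares were 99.2% and 97.7%, and the Hcst shares 26.8% and 26.5%. The Trem2 share was thus lower in the shallower knockout library before thinning and higher after it. The unthinned Hcst shares had intervals that overlap (25.6 to 28.1 and 25.2 to 27.8).

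The enzymes were found in fewer knockout than wild-type microglia. At 2000 UMIs Inpp5d was found in 63.8% (62.5 to 65.2) of cells in the wild-type library and in 45.1% (43.6 to 46.6) in the other. Syk was found in 25.6% (24.3 to 26.8) of the former and 18.0% (16.9 to 19.2), and Plcg2 in 16.7% (15.6 to 17.7) and 10.3% (9.43 to 11.3). Unthinned, the shares were 94.0% and 80.3% for Inpp5d, 66.9% and 46.3% for Syk, and 53.7% and 31.1% for Plcg2.

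The same shares in classes that should lack a gene give the background. At 2000 UMIs a Trem2 UMI was found in 20.6% (11.5 to 32.7) of 63 NK cells, at a median depth of 4443 UMIs, and in 5 of 14 B cells. In monocytes it was found in 12 of 48 wild-type and 15.9% (12.8 to 19.3) of 517 knockout cells, shares within the interval of NK cells. In border macrophages it was found in 76.2% of 21 wild-type cells (52.8 to 91.8) and 73.4% of 94 knockout cells (63.3 to 82.0), above it. A Tyrobp UMI was found in 98.4% of NK cells and 99.8% of knockout monocytes, against 8 of 14 B cells. Hcst was found in 68.3% (55.3 to 79.4) of NK cells and in 15.1% (12.1 to 18.5) of knockout monocytes.

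Among microglia thinned to 2000 UMIs the spread of UMIs per cell was set against that of counting alone. Trem2 had a median of 4 UMIs per cell in wild-type and 5 in knockout cells, with the middle 80% of cells between 1 and 7 and between 2 and 9. Its variance was 1.24 and 1.33 times its mean, where counting alone gives 1. Tyrobp had medians of 5 and 6 UMIs and ratios of 1.28 and 1.42. For Inpp5d the ratio was 1.01 and 1.08, at means of 1.02 and 0.62 UMIs against 3.85 and 5.08 for Trem2. The ratio nears 1 as the mean falls, so it does not rank the genes by how much cells differ. Both Trem2 and Tyrobp were found in 95.7% of wild-type and 98.1% of knockout cells, shares too near the single ones to show whether they vary together.

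Depth per cell differed between the libraries, so the microglial ratios were also taken within bands of depth. In cells under 4000 UMIs (476 wild-type, 975 knockout) the relative log2 ratio was 0.69 for Trem2, 0.75 for Tyrobp and 0.76 for Hcst. In cells of 4000 to 10000 UMIs (2582 and 2678) it was 0.63, 0.56 and 0.74, and in cells over 10000 UMIs (1972 and 1003) it was 0.77, 0.73 and 0.87. For Syk the values in the same order of bands were −0.29, −0.31 and −0.37, for Plcg2 −0.36, −0.50 and −0.34, and for Inpp5d −0.22, −0.41 and −0.43. Each gene kept its sign in all 3 bands, and the interval of Plcg2 under 4000 UMIs reached 0.

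**Figure D3:**
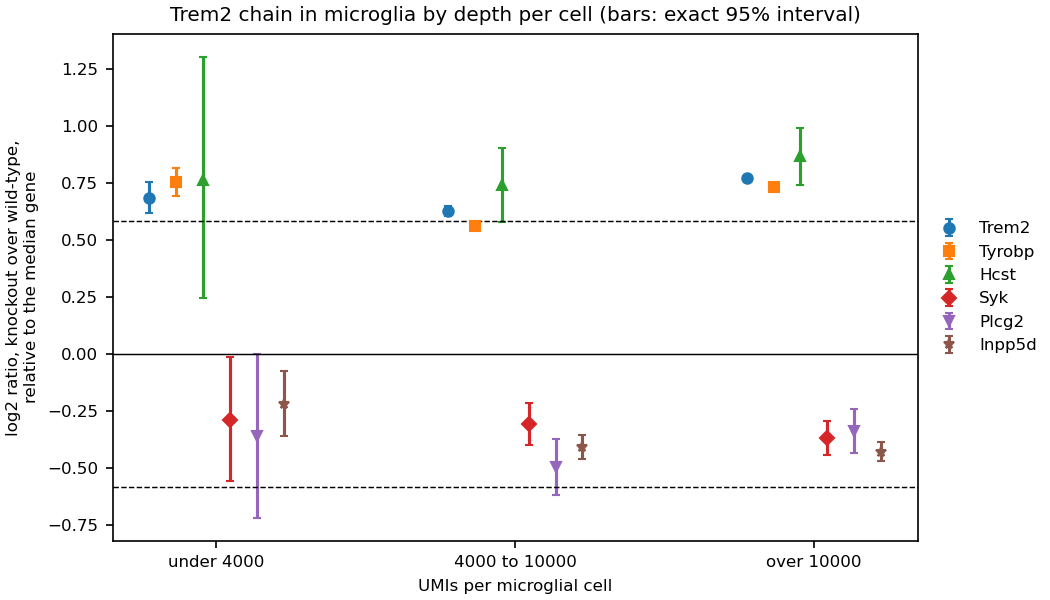
Log2 ratio of knockout over wild-type, relative to the median gene, for each of the 6 genes in microglia of 3 bands of UMIs per cell, with exact 95% intervals. Dashed lines mark 1.5-fold. Trem2, Tyrobp and Hcst lie above 0 in each band and Syk, Plcg2 and Inpp5d below it.

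The length of a gene moved with its microglial ratio over all measured genes. For 970 genes spanning under 5 kb, the class of Tyrobp and Hcst, the median relative log2 ratio was 0.35, and for 1038 genes of 5 to 10 kb, the class of Trem2, it was 0.41. For 1388 genes of 50 to 100 kb, the class of Syk, it was −0.27, and for 1037 genes of 100 kb or more, the class of Plcg2 and Inpp5d, it was −0.37. Syk, Plcg2 and Inpp5d lay −0.08, −0.05 and −0.06 from the median of their span class, with 42.1%, 44.6% and 43.5% of that class below them. Trem2, Tyrobp and Hcst lay 0.30, 0.34 and 0.48 above the median of theirs, with 77.9%, 74.3% and 83.4% of the class below them. Whether reads in introns were counted is not given in the sources used here, and its part and that of gene span in the members' ratios were not tested.

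**Figure D4:**
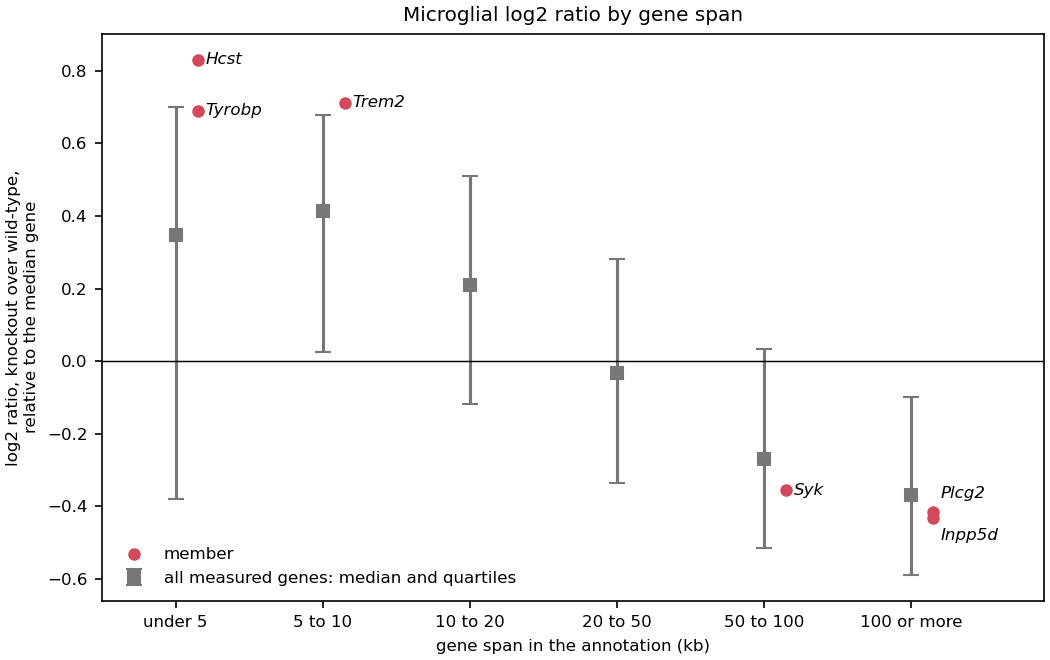
Log2 ratio of knockout over wild-type microglia, relative to the median gene, by gene span: median (squares) and quartiles (bars) of all measured genes in each span class, with the 6 genes as red points. Syk, Plcg2 and Inpp5d lie near the median of their class and Trem2, Tyrobp and Hcst above it.

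RNA of other cells and RNA quality also differed between the microglia of the libraries. Monocyte markers summed to 15.5 CPM in wild-type and 86.5 CPM in knockout microglia, or 0.174% and 1.19% of their level in monocytes. At that share the monocytes of the same library would bring 7.19 and 59.1 CPM of Tyrobp to microglia, against a difference between 2297 and 3019 CPM. NK markers stood at 7.74 and 48.9 CPM, which at the NK level of Hcst comes to 0.104 and 0.660 CPM, against a difference between 32.4 and 46.9 CPM. Hemoglobin RNA stood at 87.4 and 672 CPM. The median mitochondrial share was 1.40% of UMIs in wild-type and 0.472% in knockout microglia. The parts of RNA of other cells and of the mitochondrial share in the ratios were not tested.

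In monocytes the comparison rested on 48 wild-type cells, and the gates were mixed differently in the libraries. The wild-type monocytes were 20 Ace-gated, 24 Ly6c2-gated and 4 of both gates, the knockout ones 326, 131 and 73. The part of this mix in the pooled ratios was not tested. Relative to the median of 7844 genes, which was −0.22, the log2 ratio was 0.48 for Tyrobp (0.41 to 0.56), 1.27 for Hcst (0.47 to 2.20) and −0.64 for Syk (−1.01 to −0.25). For Trem2 it was −0.06 (−0.49 to 0.40), for Plcg2 −0.07 (−0.52 to 0.41) and for Inpp5d −0.05 (−0.53 to 0.46), with intervals on both sides of 0. By size 1 gene, Hcst, was at least 1.5-fold higher and 1, Syk, at least 1.5-fold lower, where 20.4% of measured genes were higher and 23.3% lower. With cells of more than 1 gate kept (94 wild-type and 928 knockout cells), 3 genes were higher and 0 lower. The share of all measured genes at that setting is not given here. Nearly all cells of more than 1 gate met the microglia gate, so that setting adds microglial barcodes to the monocytes.

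Split by gate, Hcst stood at 62.8 CPM (25.3 to 129, 7 UMIs) in wild-type and 79.7 CPM (66.7 to 94.5) in knockout Ace-gated monocytes. In Ly6c2-gated monocytes it stood at 21.8 CPM (7.07 to 50.8, 5 UMIs) and 69.7 CPM (54.6 to 87.8), and the knockout cells of this gate held the neutrophil and NK markers named above. At the NK level of Hcst those NK markers come to 1.53 and 7.87 CPM of Hcst. The Ace-gated knockout cells held the choroid plexus markers named above, and their part in the Ace-gated values was not tested. Syk stood at 171 CPM (103 to 266, 19 UMIs) and 97.2 CPM (82.8 to 113) in Ace-gated monocytes, intervals that overlap. In Ly6c2-gated monocytes it stood at 218 CPM (162 to 287, 50 UMIs) and 118 CPM (98.1 to 141), intervals that do not overlap. These are levels only, from 20 and 24 wild-type cells. Span class went with the ratio in monocytes too, from 0.28 under 5 kb to −0.36 at 100 kb or more.

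In the wider Trem2 pathway genes lay on both sides of the median. Of 68 other genes from ligands to disease-associated genes, 51 were measured in microglia, and their median relative log2 ratio was 0.02. At least 1.5-fold higher were 8 (15.7%) and lower 6 (11.8%), near the 15.3% and 12.6% of all measured genes. Without centring 4 were higher and 13 lower, where 4.82% of all measured genes were higher and 30.5% lower. Of the measured genes spanning under 20 kb, 7 of 19 were higher and 2 lower, where 27.5% and 9.26% of all measured genes of that span were. At 50 kb or more 0 of 21 were higher and 2 lower, where 3.75% and 20.9% of all were. The counts by role that follow are of a few genes each and are descriptions, to be read against the shares of all measured genes.

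At the receptor, the ligand Apoe stood at 564 CPM in wild-type and 752 CPM in knockout microglia, a relative log2 ratio of 0.71. In monocytes it went the other way, at 3142 and 651 CPM (−2.05). That comparison rests on 48 wild-type cells, and the mix of gates differed between the libraries. Border macrophage markers summed to 508 CPM in wild-type and 203 CPM in knockout monocytes, and their part in the monocyte ratio was not tested. At the monocyte marker shares given above, monocytes would bring 5.46 and 7.76 CPM of Apoe to microglia. Border macrophage markers stood at 7.08 and 28.1 CPM in microglia, and the Apoe that such cells would bring is not estimated here. Of 7 genes for the proteases that shed Trem2 and cut its stub, 1 was higher, the gamma-secretase subunit Psenen, at 167 and 266 CPM (0.96). Adam10, the main sheddase, stood at 206 and 165 CPM (−0.02) and Adam17 at 169 and 94.3 CPM (−0.54). Fcer1g, the other myeloid adaptor with the DAP12 type of signalling motif, stood at 2089 and 3086 CPM (0.86), close to Tyrobp in level.

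Of the kinases and effectors, none of 4 measured Src family genes passed 1.5-fold, Lyn being the most abundant at 548 and 535 CPM (0.26). Of 11 measured Syk adaptors and effectors 1 was higher and 1 lower, and both act in the same Syk-driven complex. Card9 stood at 29.6 and 45.4 CPM (0.91) and its partner Malt1 at 52.5 and 25.3 CPM (−0.76). In the PI3 kinase branch 1 of 9 was higher, Akt1 at 61.9 and 86.0 CPM (0.77). In that branch 2 were lower, Mtor at 22.5 and 11.4 CPM (−0.68) and Pik3cg, a catalytic subunit, at 190 and 99.7 CPM (−0.64).

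Of 9 measured inhibitors 1 was higher, the adaptor Dok3 at 38.0 and 53.6 CPM (0.79), and 2 lower. Cbl, a ubiquitin ligase that ends receptor signalling, stood at 206 and 96.0 CPM (−0.81), and Inppl1, the SHIP2 paralog of Inpp5d, at 27.3 and 14.7 CPM (−0.60). Of 11 genes raised with Trem2 in disease-associated microglia, 6 were measured, 2 higher and 1 lower. Lgals3 stood at 6.72 and 22.9 CPM in microglia (2.06), and at 1599 and 1604 CPM in monocytes. At the monocyte marker shares given above, monocytes would bring 2.78 and 19.1 CPM of Lgals3 to microglia, a difference of 16.3 CPM beside the measured difference of 16.2 CPM. Ccl6 stood at 83.4 and 126 CPM (0.89), of which that share comes to 1.23 and 8.57 CPM, and the growth factor Csf1 at 81.9 and 42.2 CPM (−0.66). The wild-type estimates rest on 48 monocytes, and the part of monocyte RNA in the Lgals3 and Ccl6 ratios was not tested. Cst7, Itgax, Axl, Spp1 and Gpnmb were under 10 CPM in both libraries, and Cd9, Clec7a and Lpl passed 1.5-fold in neither direction.

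Over the 6 points with at least 30 cells (microglia and monocytes of both libraries, border macrophages and NK cells of the knockout library), the genes most like each member were found by Pearson correlation of log2(CPM + 10) among 5060 genes. For Trem2 these were Ctsf (0.997), Serpinf1 (0.997) and Cd81 (0.996). For Inpp5d they were Ago1 (0.998), Iffo1 (0.997) and Dtx4 (0.997), and for Hcst H2ax (0.999), Ubl4a (0.998) and Cd3d (0.997). For Tyrobp they were Scand1 (0.993), Rps27a (0.989) and Atp6v0e (0.988). For Syk Cop1 (0.997) and Fes (0.995) led, and for Plcg2 Ptpre (0.991) and Snx10 (0.990) led.

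With 6 points many genes correlated as highly: 260 exceeded 0.95 for Trem2, 281 for Inpp5d and 163 for Hcst. The points share 2 libraries, and NK cells hold by far the highest Hcst value. Between members the correlation was 0.90 for Trem2 and Inpp5d and −0.86 for Trem2 and Tyrobp, both as a description of the same 6 points.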

How the data were processed

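Single-cell 3′ RNA-seq of pooled mouse cortical CD45+CD11b+ cells gave 1 library per genotype. The deposited values are raw UMI counts for each gene in each barcode. They were made with Cell Ranger 7.0.0, per the file headers (6.0 per the labels' protocols), on GRCm39. The submitters' processing notes name Seurat. Deposited barcodes start at 500 UMIs, and the stated filter at 500 genes had not been applied. Whether reads in introns were counted is not given in the sources used here.

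Here, cells with at least 500 genes and at most 10% mitochondrial UMIs were gated at 1 UMI of each gate gene, or 2 UMIs where 1 gene was enough. Cells meeting the NK gate and Ly6c2 counted as NK. No doublet caller was run, and cells of 2 gates were left out. UMIs were summed per class and library into CPM. Genes that reached 10 CPM in either library were measured, and log2 ratios are relative to their median unless the CPM scale is named. Classes under 30 cells in a library are given as levels only. With 1 library per genotype, calls are sizes (1.5-fold), not tests. Intervals are exact (Poisson, conditional, binomial). The calculation of the ratio was tested on simulated data, which says nothing of differences between mice or libraries. Positions come from GENCODE M39, which held 98.9% of the listed genes, and promoters from RefSeq (GRCm38.p6). Python 3.11.15, numpy 2.4.6, scipy 1.17.1 and pandas 2.3.3 were used.

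The members, lists and gates were chosen with earlier results of these data known, and the motif, the depth bands and the span classes after values were seen. Named pathway genes are the 6 highest and 6 lowest ratios. Apoe, Adam10, Adam17, Lyn, Akt1, Klrk1, Treml4, Trem1, Siglech, Cd9, Clec7a, Lpl and the unmeasured Cst7, Itgax, Axl, Spp1 and Gpnmb fall outside that rule and were chosen after their values were seen. For each member the 3 most correlated genes are named, except for Syk and Plcg2, where the third is not reported here. Alternatives covered filters, gates, scale, thinning and depth.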

Additional observations from a re-analysis of the deposited data

How the results depend on the processing

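No paired analysis was possible because each genotype has 1 library, and for the same reason no replicate could be left out. In microglia all 6 genes kept their sign under each of 12 alternatives, as did Tyrobp, Hcst and Syk in monocytes under each of 13, while Trem2, Plcg2 and Inpp5d in monocytes changed sign with the setting (Trem2 from −0.30 to 0.62). The microglial log2 ratios of Trem2, Tyrobp, Hcst, Syk, Plcg2 and Inpp5d, in this order, were 0.42, 0.39, 0.53, −0.65, −0.71 and −0.73 on the CPM scale. They were 0.60, 0.57, 0.72, −0.47, −0.53 and −0.55 relative to genes at 50 CPM or more. They were 0.84, 0.82, 0.96, −0.23, −0.29 and −0.30 relative to all genes with a UMI, which with 1 library a group equals the median-of-ratios scaling. With cells of 2 gates kept, Trem2 was 0.67, Tyrobp 0.75, Hcst 1.02 and Inpp5d −0.46. Thinned to 2000 UMIs, Trem2 was 0.68, Tyrobp 0.63, Hcst 0.69 and Syk −0.27. In cells of 4000 to 10000 UMIs, Trem2 was 0.63, Tyrobp 0.56 and Plcg2 −0.50. With gates at 2 and 3 UMIs Tyrobp was 0.71 and 0.72, and at 3 UMIs Hcst was 0.93. On the CPM scale 0 members were higher and 3 lower in microglia, and 4 pathway genes higher and 13 lower. On that scale 4.82% of all measured genes were higher and 30.5% lower. Pathway genes lower in microglia numbered 2 relative to all genes with a UMI, 2 with median-of-ratios scaling, 3 after thinning, 4 at 4000 to 10000 UMIs and 9 relative to genes at 50 CPM or more, against 6. Members higher in microglia numbered 2 relative to genes at 50 CPM or more and 2 at 4000 to 10000 UMIs, Tyrobp being the gene lost. In monocytes, 3 members were higher with cells of 2 gates kept, nearly all of which also met the microglia gate. The lower count there became 0 with those cells kept, relative to all genes with a UMI, with median-of-ratios scaling, and at 4000 to 10000 UMIs. Among these alternatives the share of all measured genes is given only for the CPM scale in microglia. The other counts thus cannot be read against such a share. Scaling shifts each gene alike by construction, and the cause of the other moves was not tested. Depth limits the monocyte values, with 13 wild-type Hcst UMIs, and the Trem2 values outside microglia and border macrophages.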

Other observations

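Cells that met more than 1 gate numbered 246 (4.41% of kept cells) in wild-type and 1056 (13.9%) in knockout cells, with median depths of 22938.5 and 15390.5 UMIs. Trem2 stood at 1753 CPM in wild-type and 2231 CPM in knockout cells of this kind, Tyrobp at 2257 and 3283 CPM, and Hcst at 35.8 and 64.7 CPM. Syk stood at 163 and 96.9 CPM, Plcg2 at 90.8 and 61.3 CPM, and Inpp5d at 535 and 297 CPM. Of these cells, 245 and 1046 met the microglia gate beside another, so their values are largely those of microglial barcodes.

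Cells that met no gate numbered 229 and 1119, with median depths of 1304 and 1028 UMIs. In them Trem2 stood at 898 CPM (809 to 993) in wild-type and 593 CPM (560 to 626) in knockout cells, lower in the knockout, while Tyrobp stood at 2072 and 3066 CPM. What these cells are was not determined.

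Microglia were also split by UMIs of 7 disease-associated genes after thinning to 2000 UMIs, a split chosen after seeing the data. Cells with UMIs of at least 2 of these genes numbered 34 among wild-type and 26 among knockout microglia. In these cells Inpp5d stood at 324 CPM (203 to 490) in wild-type and 96.2 CPM (31.2 to 224, 5 UMIs) in knockout cells, against 517 and 315 CPM in cells with none of these UMIs. Trem2 stood at 2074 CPM (1745 to 2445) and 2962 CPM (2512 to 3468), against 1917 and 2541 CPM. Other cell types among these few cells were not looked for.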
